A study of Saccharomyces cerevisiae with 22 samples.

Results

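The genes described here are those whose mRNA varied together with the mRNA of PSD1 among budding yeast libraries of the same group. PSD1 encodes the phosphatidylserine decarboxylase of the mitochondrial inner membrane, and it was overexpressed from a multicopy (2 micron) plasmid. The set comprised 17 of the 22 libraries of the series. For each gene, log2 CPM (counts scaled to 1e+06 per library) were fitted against log2 CPM of PSD1, with group and library series (the first digit of the library number, 5 or 6) removed. The slope is therefore the log2 change of a gene per log2 unit of PSD1. Genes were chosen by that slope itself, at an adjusted p under 0.05 over all genes tested, so their slopes are given with their standard error (SE) as a description and not as a test. Of 6243 genes tested, 2584 passed. Background rates were 20.3% for genes higher with more PSD1 (1269 genes) and 21.1% for genes lower with more PSD1 (1315 genes). With the replicate number as a block in place of series, edgeR called 0 genes in either direction, with 1074 at an unadjusted p under 0.05. A library set is taken here as a run of neighbouring library numbers. With the library set as the block edgeR called 1261 higher and 1278 lower, and 1916 of the 2584 passed in the same direction. On log2 FPKM, limma called 934 higher and 1692 lower.

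All cells were of the strain W303 and grew with 2% raffinose before 2% galactose was added for 4 h. Psd1_oe_Pdr3_ko cells (6 libraries) carried the PSD1 plasmid and lacked PDR3, Psd1_oe cells (6 libraries) carried the same plasmid, and GalV5-Psd1 cells (5 libraries) carried a plasmid with V5-tagged PSD1. Empty cells (5 libraries) carried the plasmid without an insert and were not fitted. PolyA RNA was sequenced, and the labels do not say whether replicates were separate cultures, so the spread between libraries may be technical in part.

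Most mitochondrial proteins are made in the cytosol and imported through channels of the outer and inner membranes. A precursor made in excess can occupy these channels. The transcription factor Pdr3 then raises CIS1, whose product recruits the ATPase Msp1 to the channel, and it also controls drug pumps such as PDR5 and PDR15. The plasmid promoter is switched on by Gal4 in galactose, and it is the one that also drives the chromosomal genes GAL1 and GAL10.

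The stretches of the reference genome that hold Gal4 sites are shown because the plasmid and the GAL genes use the same promoter type. They come from the R64 assembly, which is the sacCer3 sequence, and run from 5′ to 3′ on the strand of the gene named. The W303 sequence was not read here. Capitals mark each Gal4 site, searched on both strands as CGG, then 11 bases of any kind, then CCG, and overlapping sites run together. The divergent stretch lies between GAL10 and GAL1 and is shown on the GAL1 strand.
GAL1-GAL10 (chrII:278548-278641): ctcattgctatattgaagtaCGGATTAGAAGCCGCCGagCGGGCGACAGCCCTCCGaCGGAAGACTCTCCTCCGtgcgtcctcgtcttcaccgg
GAL7 (chrII:275695-275727): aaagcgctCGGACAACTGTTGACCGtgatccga
GAL2 (chrXII:289788-289908): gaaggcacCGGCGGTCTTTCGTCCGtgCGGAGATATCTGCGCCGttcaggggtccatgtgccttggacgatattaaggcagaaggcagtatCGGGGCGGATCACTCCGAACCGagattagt
GAL80 (chrXIII:171414-171446): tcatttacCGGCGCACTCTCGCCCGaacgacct
GAL3 (chrIV:463138-463170): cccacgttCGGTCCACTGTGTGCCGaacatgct

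Such a site stood within 500 bases before the start of 179 of 6000 protein-coding genes, or 2.98%. GAL1 and GAL10 each had 3 in that window, GAL2 had 4, and GAL7, GAL80, GAL3 and GAL4 each had 1.

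PSD1 mRNA differed up to 3.75 fold between the plasmid libraries. In Psd1_oe_Pdr3_ko libraries the lowest, median and highest values were 13320, 17140 and 26790 CPM, with a mean of 17990 ± 4682 CPM (SD, n = 6). In Psd1_oe libraries they were 8126, 15590 and 24680 CPM, with a mean of 15170 ± 5970 CPM (SD, n = 6). GalV5-Psd1 libraries held 18760, 23090, 30460, 24340 and 26350 CPM, against 610, 409, 385, 551 and 242 CPM in Empty libraries.

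The library labelled replicate 3 had the highest PSD1 in each of the 3 plasmid groups. Together these 3 libraries gave 56.5% of the residual sum of squares of PSD1 after group and series were removed, and the libraries of series 5 gave 95.0%. Group and series took 41.5% of the variance of log2 PSD1, whereas group and replicate number took 89.8%. The residual SD was 0.44 on the log2 scale, with a range of -0.73 to 0.88. The PSD1 level and the labelled replicate number therefore moved together, and slopes on PSD1 cannot be told apart from differences between numbered replicates. Replicate numbers do not mark the same library set in each group. Replicate 3 of both untagged groups shares a set with replicate 1 of GalV5-Psd1 and Empty, and replicate 3 of GalV5-Psd1 and Empty belongs to another.

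**Figure D1:**
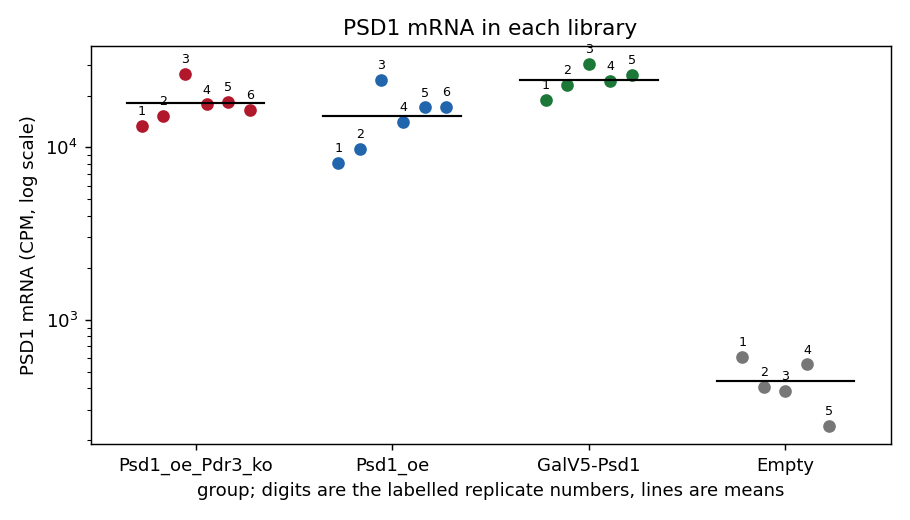
PSD1 mRNA in CPM on a log axis, one point per library, with the labelled replicate number above each point and a line at the group mean. Replicate 3 stands highest in each plasmid group, at 26790, 24680 and 30460 CPM, and all Empty libraries lie at or under 610 CPM.

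Total counts of the 17 libraries (in 1e+06 counts) were 8.15 at the lowest, 13.3 at the median and 20.8 at the highest. A relation of depth with PSD1 did not pass (Pearson r = 0.16, exact permutation p = 0.30, adjusted p = 0.39; Spearman rho = 0.098, exact p = 0.63, adjusted p = 0.63; r = 0.18 without the 2 libraries of most extreme PSD1). In that test the PSD1 residuals were exchanged within the 6 combinations of group and series (15552 arrangements, two-sided), with adjustment over a family of 4 library measures.

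Gene length moved with the slopes. Among 5778 genes with a reference length, the Spearman correlation across genes between slope and length was 0.65. Genes are not independent replicates, so this is a description. In the 579 shortest genes, from 78 to 441 bases, the median slope was -0.26, and 37.8% of genes were lower with more PSD1. In the 578 longest genes, from 2870 to 14733 bases, the median slope was 0.31, and 76.3% were higher with more PSD1. Across the 5 Empty libraries, fitted by themselves with the series removed, the corresponding correlation was 0.078.

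Each library was then given 1 length trend, the log2 CPM difference per log2 unit of gene length after group and series were removed. This trend is built from the same gene and PSD1 values as the slopes, so its relation to PSD1 restates the relation of slope and length by library and is given with no p. Pearson's r between the trend and PSD1 was 0.92 over the 17 libraries (Spearman's rho = 0.87) and 0.89 without the 2 libraries of most extreme PSD1. It was 0.94 in series 5 alone (9 libraries), 0.75 in series 6 alone (8 libraries) and 0.81 without the 3 libraries labelled replicate 3. The share of counts on entries absent from the reference annotation ran from 1.68% to 3.05% and was lower where PSD1 was higher (r = -0.89, rho = -0.83, and r = -0.86 without the same 2 libraries). A trend over GC content had r = -0.079 and rho = -0.13 with PSD1, and r = -0.30 without the 2 libraries. Both come from the same counts and are descriptions as well. Whether RNA quality or library preparation has a part in the length trend was not tested.

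**Figure D2:**
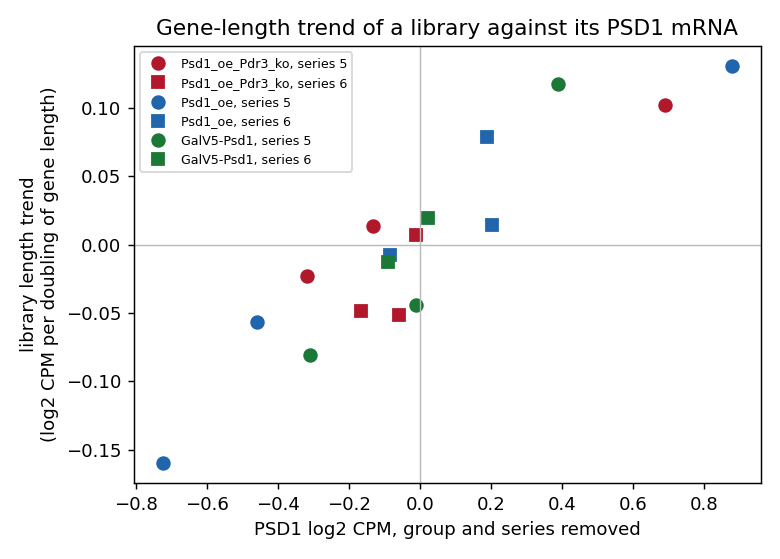
Length trend of each library in log2 CPM per log2 unit of gene length, against its PSD1 log2 CPM after group and series were removed. The 17 points rise together (r = 0.92), with Psd1_oe replicate 1 lowest on both axes at -0.73 and -0.16, and Psd1_oe replicate 3 highest on both at 0.88 and 0.13.

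With each library's length trend removed, 448 of 5778 genes (7.75%) were higher with more PSD1 and 301 (5.21%) were lower. Of the 2584 genes that passed as first fitted, 529 passed in the same direction. Without the 3 libraries labelled replicate 3, 44 genes (0.704%) were higher and 46 (0.736%) lower, and 82 of the 2584 passed in the same direction. Both alternatives were chosen after the data were seen. Leaving out Psd1_oe replicate 3 alone reduced the genes lower with more PSD1 to 839.

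**Figure D3:**
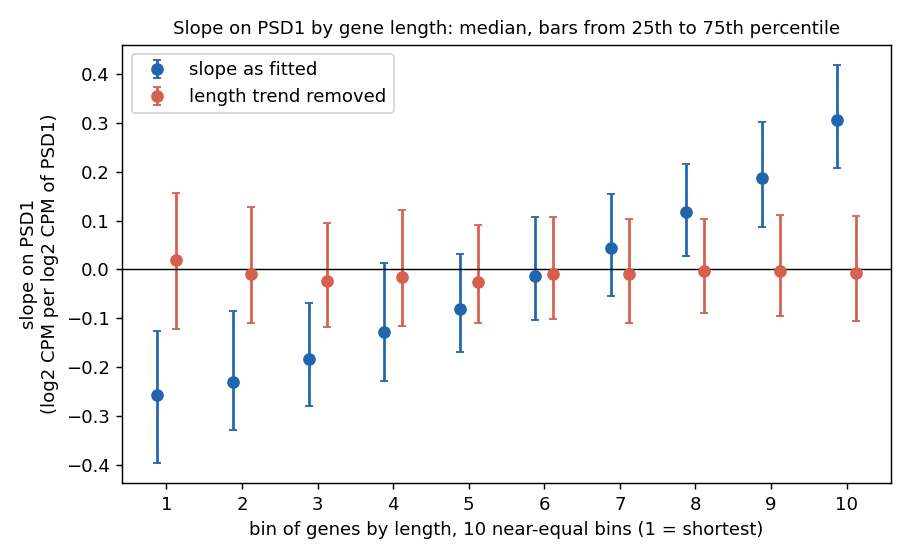
Slope on PSD1 in 10 near-equal bins of gene length, shortest to longest, as the median with bars from the 25th to the 75th percentile. As fitted, medians run from -0.26 to 0.31, and with the length trend removed they lie between -0.03 and 0.02.

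Genes of the galactose regulon, which turn galactose into glucose phosphates, did not as a group follow the plasmid gene over the 17 libraries. Of 13 members, 3 were higher with more PSD1 (23.1%, near the 20.3% over all genes tested) and none was lower. The median slope was 0.12 beside -0.025 over all genes tested. GAL1, the galactokinase, had lowest, median and highest values of 6027, 7494 and 8304 CPM in Psd1_oe_Pdr3_ko libraries. It had 5830, 6980 and 8105 CPM in Psd1_oe libraries, 5956, 6061, 7420, 5900 and 6009 CPM in GalV5-Psd1 libraries, and 11980, 12140, 11020, 11730 and 11430 CPM in Empty libraries. GAL1 thus spanned a narrower range than PSD1 in each plasmid group, and all plasmid libraries lay below all Empty ones. Its slope was 0.12 ± 0.11 (SE, n = 17).

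GAL10, the epimerase transcribed from the other side of the stretch printed above, had a slope of -0.0051 ± 0.12. GAL7, the uridylyltransferase, had -0.068 ± 0.15, and GAL80, the repressor of Gal4, had 0.015 ± 0.12. None of these passed. Within GalV5-Psd1 libraries alone the slopes of GAL1, GAL10, GAL7 and GAL80 were 0.46, 0.58, 0.93 and 0.77. Within the untagged groups they lay between -0.175 and 0.176. A test of slope differences between groups called 0 of the 13 galactose genes. The members that passed were GAL3, the galactose sensor (0.47 ± 0.11), GAL2, the galactose permease (0.33 ± 0.11), and GAL4 itself (0.22 ± 0.046). GAL3 passed with the length trend removed as well (0.42 ± 0.11), whereas GAL2 (0.25 ± 0.11) and GAL4 (0.0074 ± 0.058) then did not. Without the libraries labelled replicate 3 no galactose gene passed, where 0.704% of all genes were higher and 0.736% lower. In the GalV5-Psd1 group the highest GAL1 value, 7420 CPM, stood in replicate 3, which also held the most PSD1.

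**Figure D4:**
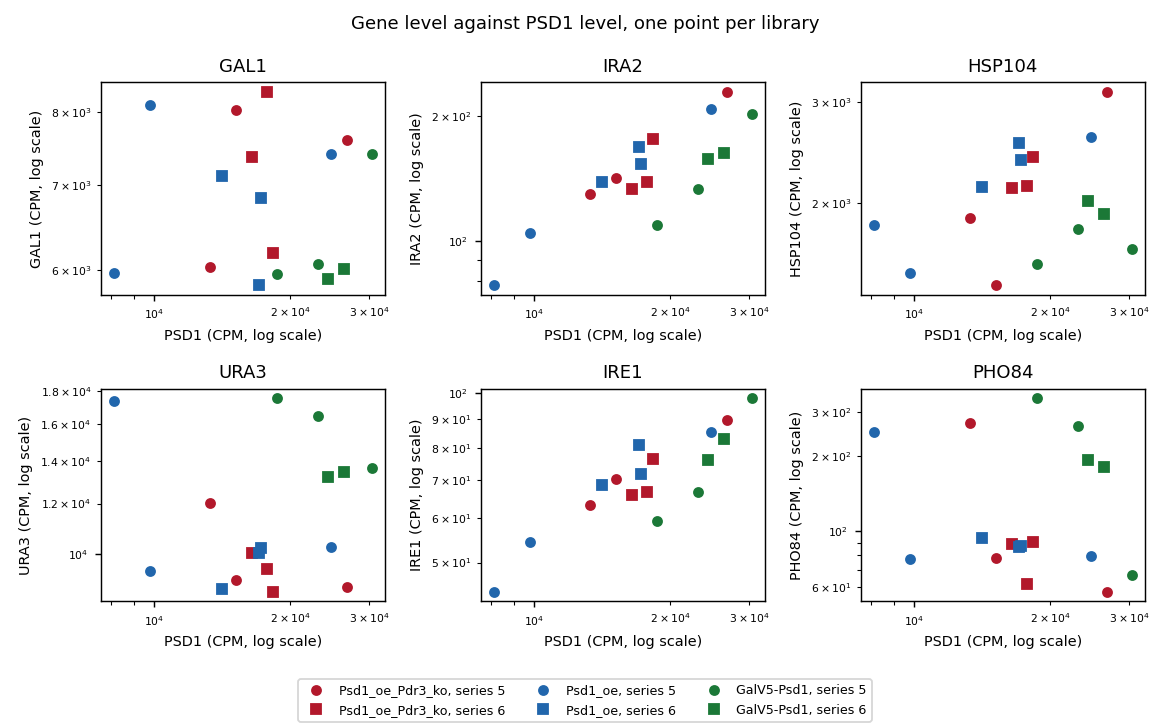
Levels of 6 genes against PSD1, both in CPM on log axes, one point per library, coloured by group and shaped by series. GAL1 stays between 5830 and 8304 CPM over the whole PSD1 range, IRA2 and IRE1 climb with PSD1 in each group, and PHO84 has its highest value of each group in replicate 1.

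The drug resistance genes under Pdr1 and Pdr3 gave no common direction. Of 19 measured members, 7 (36.8%) were higher with more PSD1 and 4 (21.1%) lower, beside 20.3% and 21.1% over all genes tested. The median slope was 0.09. With the length trend removed 2 were higher and none lower, beside 7.75% and 5.21% over all genes. CIS1 held 1.10, 1.63 and 3.38 CPM (lowest, median, highest) in Psd1_oe_Pdr3_ko libraries and 13.6, 45.9 and 118 CPM in Psd1_oe libraries. GalV5-Psd1 libraries held 1.56, 0.891, 0.488, 0.637 and 0.822 CPM and Empty libraries 0.576, 0.642, 0.901, 0.579 and 0.316 CPM. Within Psd1_oe, the lowest CIS1 value stood in replicate 3, the library with the most PSD1, and the highest in replicate 2, whose PSD1 was lower than in all others of the group except replicate 1. The slope over all 17 libraries was -0.93 ± 0.44 and did not pass. The slopes within groups were 1.25 in Psd1_oe_Pdr3_ko, -1.55 in Psd1_oe and -1.90 in GalV5-Psd1 libraries.

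PDR5, a drug efflux pump, held 190, 212 and 257 CPM (lowest, median, highest) in Psd1_oe_Pdr3_ko libraries and 1420, 2703 and 3001 CPM in Psd1_oe libraries. GalV5-Psd1 libraries held 189, 193, 275, 278 and 271 CPM, and Empty libraries 244, 268, 306, 311 and 323 CPM. Its lowest Psd1_oe value was again in replicate 3, and its slope was -0.053 ± 0.17. PDR15, a related pump, had a slope of 0.35 ± 0.18 and PDR3 itself 0.090 ± 0.13, and neither passed. PDR3 is deleted in the Psd1_oe_Pdr3_ko libraries, which held 0.072 to 0.236 CPM of it and were in the fit. Its slope was -0.012 within Psd1_oe and 0.60 within GalV5-Psd1. PDR1 passed as first fitted (0.21 ± 0.058) and had -0.060 ± 0.061 with the length trend removed. MSP1 had 0.073 ± 0.053 and did not pass. TPO4, a polyamine exporter, passed both ways, with slopes of 0.87 ± 0.23 and 0.75 ± 0.23. Within groups TPO4 had 1.46 in Psd1_oe_Pdr3_ko, 1.01 in Psd1_oe and -1.45 in GalV5-Psd1 libraries. It had 0.24 without the libraries labelled replicate 3 and did not pass there.

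Of 32 cytosolic heat shock genes, 10 (31.25%) were higher with more PSD1 and 1 (3.1%) was lower, beside 20.3% and 21.1% over all genes tested. The median slope was 0.16. Removing the length trend left 3 higher and none lower, beside 7.75% and 5.21% over all genes. Without the libraries labelled replicate 3 none passed, beside 0.704% and 0.736% over all genes, and the median turned to -0.056. HSP104, a disaggregase, held 1432, 2131 and 3129 CPM (lowest, median, highest) in Psd1_oe_Pdr3_ko libraries and 1503, 2257 and 2613 CPM in Psd1_oe libraries. GalV5-Psd1 libraries held 1560, 1797, 1657, 2010 and 1908 CPM, and Empty libraries 919, 956, 853, 876 and 699 CPM. The highest value of both untagged groups stood in replicate 3, and no plasmid library overlapped the Empty ones. Its slope was 0.51 ± 0.11.

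SSA4, a stress-induced Hsp70, had a slope of 0.61 ± 0.19. RPN4, the transcription factor of the proteasome, had 0.30 ± 0.086. With the length trend removed HSP104 had 0.29 ± 0.12, SSA4 0.49 ± 0.19 and RPN4 0.24 ± 0.090, and none of them passed. Without the 3 libraries labelled replicate 3 the slope of SSA4 was -0.035. HSP26, a small heat shock protein, had 0.51 ± 0.29 and did not pass. The proteasome list gave 2 higher (5.9%) and 5 lower (14.7%) of 34, both smaller shares than over all genes tested.

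Phospholipid synthesis genes, to which PSD1 belongs, had 7 of 23 members (30.4%) higher with more PSD1 and 1 (4.3%) lower. The shares over all genes tested were 20.3% and 21.1%. The median slope of the list was 0.18. With the length trend removed 4 were higher and none lower, beside 7.75% and 5.21% over all genes, and the median was 0.20. Without the libraries labelled replicate 3 none passed, beside 0.704% and 0.736% over all genes, and the median turned to -0.071. CKI1, the choline kinase, had a slope of 0.64 ± 0.11. CHO2, which methylates the phosphatidylethanolamine that Psd1 makes, had 0.53 ± 0.11. INO2, an activator of these genes, had 0.50 ± 0.14. PIS1, the phosphatidylinositol synthase, was the member lower with more PSD1, at -0.49 ± 0.12. Across the Empty libraries, where the plasmid holds no PSD1, CKI1, CHO2 and INO2 had slopes of 0.72, 0.49 and 0.68 on the PSD1 of the chromosome.

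Of 26 mitochondrial chaperones and proteases, 11 (42.3%) were higher with more PSD1 and 4 (15.4%) lower, beside 20.3% and 21.1% over all genes tested. With the length trend removed 5 were higher and 1 lower, beside 7.75% and 5.21% over all genes. PIM1, the matrix Lon protease, had a slope of 0.45 ± 0.075, and 0.16 ± 0.081 with the length trend removed, which did not pass. YME1, a protease facing the intermembrane space, passed both ways (0.54 ± 0.079 and 0.38 ± 0.083). Within groups YME1 had 0.45 in Psd1_oe_Pdr3_ko, 0.65 in Psd1_oe and 0.025 in GalV5-Psd1 libraries. GEM1, a GTPase of the contact between mitochondria and the endoplasmic reticulum, had 0.70 ± 0.071 and 0.57 ± 0.065. Its slopes within groups were 0.67 in Psd1_oe_Pdr3_ko, 0.74 in Psd1_oe and 0.61 in GalV5-Psd1 libraries. MMM1, a subunit of the same contact, had 0.41 ± 0.070 and 0.43 ± 0.070.

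Of 37 mitochondrial import genes, with a median length of 552 bases, 2 (5.4%) were higher and 12 (32.4%) lower with more PSD1 and 23 did not pass. The shares over all genes tested were 20.3% and 21.1%. Removing the length trend left 2 higher and none lower, beside 7.75% and 5.21% over all genes. Without the libraries labelled replicate 3 none was higher and 1 lower, beside 0.704% and 0.736% over all genes. TIM10, a small chaperone of the intermembrane space, had a slope of -0.43 ± 0.091, which became -0.14 ± 0.083 and no longer passed.

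Genes for ribosomal proteins, which are short in yeast, showed the same change on removal of the length trend. None of 56 small-subunit and 79 large-subunit genes was higher with more PSD1, and 23 and 42 (41.1% and 53.2%) were lower, beside 21.1% over all genes tested. With the length trend removed 3 and 2 were lower, and 1 large-subunit gene was higher, beside 5.21% lower and 7.75% higher over all genes. RPS25A had 378, 577 and 675 CPM (lowest, median, highest) in Psd1_oe_Pdr3_ko libraries and 462, 528 and 815 CPM in Psd1_oe libraries. GalV5-Psd1 libraries held 872, 819, 686, 745 and 732 CPM, and Empty libraries 643, 696, 658, 793 and 858 CPM. In Psd1_oe_Pdr3_ko, Psd1_oe and GalV5-Psd1 the lowest value stood in replicate 3. Its slope was -0.52 ± 0.086, and -0.25 ± 0.078 with the length trend removed, where it still passed. RPL15B had -0.48 ± 0.073 and -0.28 ± 0.079 and passed both ways. Paralogous pairs such as RPL15A and RPL15B share reads, so their split is uncertain.

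Of 69 mitochondrial ribosomal protein genes, none was higher and 26 (37.7%) were lower, beside 20.3% and 21.1% over all genes tested. With the length trend removed 2 were higher and 3 lower, beside 7.75% and 5.21% over all genes. MRPL32 had -0.42 ± 0.057 and -0.19 ± 0.053 and passed both ways. Of 8 histone genes 4 (50%) were lower with more PSD1, beside 21.1% over all genes tested, and none passed with the length trend removed. HTB1, a histone H2B gene, had -0.38 ± 0.083 and -0.12 ± 0.072. Ribosome biogenesis had 5 higher (8.6%) and 7 lower (12.1%) of 58, both smaller shares than over all genes tested. RPA190 of that list, the large subunit of RNA polymerase I and a long gene of 4995 bases, had 0.60 ± 0.088 and 0.22 ± 0.073. The second of these did not pass.

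Of 38 oxidative phosphorylation genes, 5 were higher and 6 lower with more PSD1, both smaller shares than over all genes tested, and 27 did not pass. There were 8 higher and 1 lower with the length trend removed, where 7.75% of all genes were higher and 5.21% lower. COX5B, the cytochrome oxidase subunit made when oxygen is scarce, was lower both ways (-0.82 ± 0.10 and -0.60 ± 0.12). Of 17 TCA cycle genes, 6 (35.3%) were higher and none lower, with a median slope of 0.32. Of 23 genes of the iron regulon, which import and save iron, 12 (52.2%) were higher and none lower, with a median slope of 0.38. Of 22 glucose-repressed carbon genes, 7 (31.8%) were higher and none lower, with a median slope of 0.69. The shares over all genes tested were 20.3% higher and 21.1% lower. With the length trend removed 2 TCA cycle, 2 iron and 3 glucose-repressed genes were higher, beside 7.75% over all genes. Their median slopes were then 0.26, 0.30 and 0.62. Without the libraries labelled replicate 3 none of these 3 lists had a gene that passed, beside 0.704% higher and 0.736% lower over all genes. Their median slopes were then 0.14 for the TCA cycle, -0.04 for iron, where the sign turned, and 0.68 for glucose-repressed genes.

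Many genes of these lists had slopes that differed between the plasmid groups. In an interaction fit, in which each group has its own slope, 370 of 6243 genes (5.93%) differed between groups. They included 11 of 17 TCA cycle genes, 11 of 23 iron genes, 7 of 18 mitochondrial lipid transfer and contact genes, 11 of 38 oxidative phosphorylation genes and 6 of 22 glucose-repressed genes. JEN1, the lactate permease, had slopes of 3.27 in Psd1_oe_Pdr3_ko, 1.3 in Psd1_oe and -2.51 in GalV5-Psd1 libraries (adjusted p = 0.0122, edgeR quasi-likelihood test). Its lowest, median and highest values were 80.9, 145 and 888 CPM in Psd1_oe_Pdr3_ko libraries and 112, 161 and 465 CPM in Psd1_oe libraries. GalV5-Psd1 libraries held 546, 313, 160, 360 and 317 CPM, and Empty libraries 512, 290, 186, 221 and 257 CPM. In the untagged groups the highest JEN1 stood in replicate 3, and in GalV5-Psd1 and Empty the lowest did. By library set, replicate 3 of the untagged groups belongs with replicate 1 of GalV5-Psd1 and Empty, which held their groups' highest JEN1 (546 and 512 CPM). That set had the most PSD1 of each untagged group and the least of GalV5-Psd1. Differences of slope between groups therefore cannot be told apart from differences between library sets.

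KGD1, a subunit of the 2-oxoglutarate dehydrogenase, had 0.97, 0.48 and -0.62 in the same order (adjusted p = 0.0110). HXT6, a hexose transporter that shares reads with HXT7, had 2.20, 1.39 and -2.11 (adjusted p = 0.00568). ACO1, the aconitase, had 0.92, 0.56 and -0.72 (adjusted p = 0.0412). ARN1, a siderophore transporter, had 1.82, 0.26 and -0.057 (adjusted p = 0.0162). FET3, the multicopper oxidase of iron uptake, had 1.97, 0.73 and -1.16 and did not pass (adjusted p = 0.0594). These adjusted p-values come from edgeR's quasi-likelihood test over all genes. JEN1 and the genes of this paragraph were named for their slopes over the same libraries, so these p-values are a description. In each plasmid group and in Empty, KGD1, HXT6, ACO1 and FET3 were highest in the library set that holds replicate 3 of the untagged groups. ARN1 was highest there in the plasmid groups and not in Empty.

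Single libraries decided the interaction count. It was 3 without GalV5-Psd1 replicate 1, 4 without GalV5-Psd1 replicate 3 and 20 without Psd1_oe_Pdr3_ko replicate 3, and it was 963 without Psd1_oe_Pdr3_ko replicate 1 and 710 without Psd1_oe replicate 1. DESeq2 gave 834, and the fit with the replicate block gave 95.

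**Figure D5:**
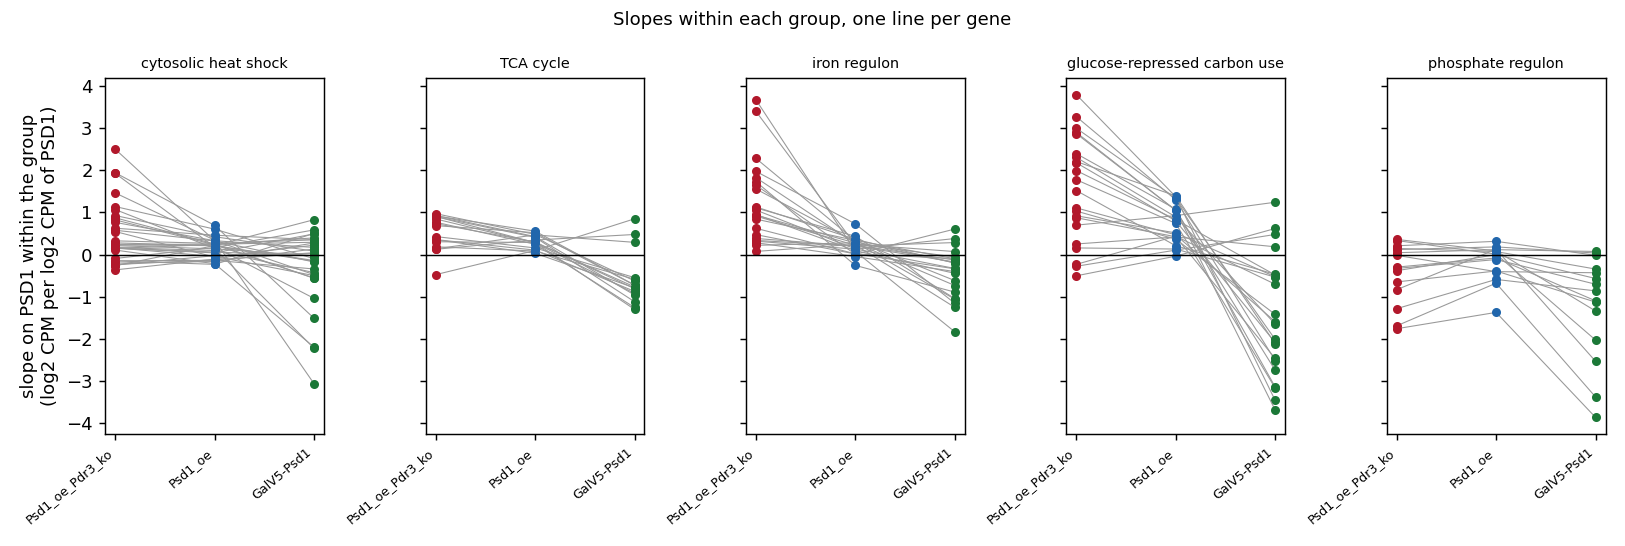
Slope on PSD1 within each plasmid group for the measured members of 5 lists, one line per gene. Most TCA cycle and glucose-repressed genes lie above 0 in Psd1_oe_Pdr3_ko and Psd1_oe and below 0 in GalV5-Psd1, as JEN1 does with 3.27, 1.3 and -2.51.

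Of 15 phosphate genes, 2 (13.3%) were higher and 5 (33.3%) lower with more PSD1 and 8 did not pass, with a median slope of -0.22. The shares over all genes tested were 20.3% and 21.1%. There were 1 higher and 6 lower with the length trend removed, beside 7.75% and 5.21% over all genes. Without the libraries labelled replicate 3 none passed, beside 0.704% and 0.736% over all genes. PHO84, the high-affinity phosphate transporter, held 57.3, 83.4 and 270 CPM (lowest, median, highest) in Psd1_oe_Pdr3_ko libraries and 77.4, 86.6 and 250 CPM in Psd1_oe libraries. GalV5-Psd1 libraries held 340, 263, 66.7, 193 and 181 CPM, and Empty libraries 329, 597, 85.2, 98.7 and 91.0 CPM. Replicate 1 was the highest in each plasmid group, and replicates 1 and 2 were the highest in Empty, where PSD1 was at or under 610 CPM. The slope of PHO84 was -1.22 ± 0.35, and 0.87 with replicate number in place of series. SPL2, an inhibitor of low-affinity phosphate uptake, had -1.89 ± 0.49, and VTC1, a polyphosphate synthase subunit, had -0.54 ± 0.10.

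Among other lists, the unfolded protein response of the endoplasmic reticulum had 4 higher (20%) and 6 lower (30%) of 20, beside 20.3% and 21.1% over all genes tested. IRE1, its sensor, held 63.2, 68.6 and 89.6 CPM (lowest, median, highest) in Psd1_oe_Pdr3_ko libraries and 44.4, 70.2 and 85.5 CPM in Psd1_oe libraries. GalV5-Psd1 libraries held 59.2, 66.7, 98.0, 76.0 and 83.0 CPM, against 93.6, 81.0, 95.5, 83.5 and 82.5 CPM in Empty libraries. Replicate 3 was the highest in Psd1_oe_Pdr3_ko, Psd1_oe, GalV5-Psd1 and Empty. Its slope was 0.61 ± 0.070, 0.33 ± 0.043 with the length trend removed and 0.72 without the libraries labelled replicate 3, and it passed in each. KAR2, the Hsp70 of that compartment, had 0.44 ± 0.081 and 0.30 ± 0.077.

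The retrograde list had 3 higher (30%, beside 20.3% over all genes tested) and none lower of 10. RTG1, a transcription factor of the retrograde response, held 25.9, 33.1 and 37.6 CPM (lowest, median, highest) in Psd1_oe_Pdr3_ko libraries and 11.6, 28.9 and 40.7 CPM in Psd1_oe libraries. GalV5-Psd1 libraries held 25.4, 25.6, 41.0, 34.7 and 34.9 CPM, against 33.6, 32.0, 33.0, 29.0 and 32.0 CPM in Empty libraries. It is a short gene of 534 bases, and its slope was 0.97 ± 0.11, 1.19 ± 0.12 with the length trend removed, and 1.29 without the libraries labelled replicate 3. It passed in each.

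Several lists had smaller shares past the threshold in each direction than the 20.3% higher and 21.1% lower over all genes tested. They were general stress under Msn2 and Msn4 (5 higher, none lower of 36), oxidative stress under Yap1 (2 and 2 of 25), ergosterol synthesis (4 and 2 of 26), lipid transfer and contact sites of mitochondria (2 and 3 of 18) and the a mating list (1 and 1 of 7). Amino acid synthesis (8 and 2 of 43) and glycolysis (3 and none of 17) had 18.6% and 17.65% higher, close to the share over all genes. GRE2, a reductase of the oxidative stress list, had -0.59 ± 0.19. G1 cyclins and cell cycle entry had 3 higher and 3 lower of 13, close to the shares over all genes. WHI5, a repressor of cell cycle entry, had 0.42 ± 0.070 and passed with the length trend removed (0.54 ± 0.075). No gene of the alpha mating list (4 measured) or of meiosis and sporulation (12 measured) passed.

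URA3, which makes uracil, was lower with more PSD1 (-0.34 ± 0.12). It held 8739, 9282 and 12040 CPM (lowest, median, highest) in Psd1_oe_Pdr3_ko libraries and 8806, 10150 and 17370 CPM in Psd1_oe libraries. GalV5-Psd1 libraries held 17530, 16450, 13630, 13210 and 13430 CPM, and Empty libraries 17110, 15780, 15190, 11880 and 14390 CPM. The labels do not name the plasmid marker. URA3 no longer passed without any one of 10 of the 17 libraries. LEU2, TRP1 and HIS3 did not pass (-0.13 ± 0.18, -0.16 ± 0.099 and -0.12 ± 0.14).

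APC1, a neighbour of PSD1 on chromosome XIV and a subunit of the anaphase-promoting complex, is 5247 bases long and had 0.65 ± 0.083 and, with the length trend removed, 0.26 ± 0.066. It passed both ways and without the libraries labelled replicate 3. Of the 6 neighbours of PSD1 tested, 2 (33.3%) were higher and 2 (33.3%) lower with more PSD1, beside 20.3% and 21.1% over all genes tested. With the length trend removed 1 was higher and none lower, beside 7.75% and 5.21% over all genes.

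The 10 largest positive slopes with a mean of at least 5 CPM and 1 sign in the 3 groups belonged to Ty elements and to subtelomeric or unnamed loci, from 2.38 ± 0.45 for YHR218W to 12.9 ± 2.0 for YPR137C-A. The 10 most negative ran from -5.66 ± 0.98 for YOL050C to -1.41 ± 0.48 for YGR018C, and included TAR1, encoded within the ribosomal DNA repeat (-1.79 ± 0.30). YPR137C-A lies within YPR137C-B, which was among the most negative (-5.29 ± 1.5), and both had 0 CPM in some libraries of each plasmid group. Such entries have near-identical copies or overlap other genes, and reads may be split between them, so their values are uncertain.

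Among genes with the smallest p, chosen after their values were seen, IRA2, a negative regulator of Ras and 9240 bases long, had 0.90 ± 0.073. It held 130, 141 and 229 CPM (lowest, median, highest) in Psd1_oe_Pdr3_ko libraries and 78.2, 146 and 209 CPM in Psd1_oe libraries. GalV5-Psd1 libraries held 109, 134, 203, 158 and 163 CPM, and Empty libraries 177, 168, 204, 169 and 157 CPM. Replicate 3 was the highest in Psd1_oe_Pdr3_ko, Psd1_oe, GalV5-Psd1 and Empty. The slope was 0.39 ± 0.044 with the length trend removed and 0.96 without the libraries labelled replicate 3. ADR1, an activator of glucose-repressed genes, had 0.91 ± 0.085 and 0.58 ± 0.061, and SNT2, a chromatin protein, had 1.00 ± 0.089 and 0.66 ± 0.071.

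As first fitted, with the length trend removed, and without the libraries labelled replicate 3, 34 genes passed in 1 direction throughout. Of these, 32 were higher with more PSD1 and 2 were lower. They included IRA2, IRE1, RTG1 and APC1, GPB1, a Ras-pathway regulator (1.27), SSB1, a ribosome-bound Hsp70 (0.57), EFT1, an elongation factor (0.45), and DED1, a translation helicase (0.49). SSB1 and EFT1 have close copies, SSB2 and EFT2, and a further 7 were near-identical YRF1 copies. The 2 lower ones were HUR1 (-0.69) and RSM27, a mitochondrial ribosomal protein (-0.46). All 3 fits share libraries, so this count is a description. Apart from IRE1, RTG1, APC1 and RSM27, the genes named here were chosen after their values were seen.

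Just inside the threshold lay GIM3 (slope -0.25) and RMI1 (-0.21), and just outside it GPN3 (-0.21) and GAC1 (0.51), chosen after their values were seen.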

How the data were processed

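The members and the lists were chosen with earlier results of these data known. Expected counts per gene were deposited by the authors as whole numbers, taken here as rounded estimates. A second table was deposited as log2 of FPKM with 1 added, judged from its header and values, and served 1 alternative. Per the submitters' processing notes, sacCer3 and the tools RSEM 1.3.0, STAR 2.5.3a and SAMtools 1.3 were used. How strands were counted, and against which annotation, is not given in the sources used here, so genes that overlap or run antisense to each other are uncertain. RSEM can split reads among near-identical copies, which makes their counts uncertain. Of 7126 entries 6048 matched the R64 reference.

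For 2 columns the name and the label gave different replicate numbers, and samples were matched by library number. Replicate numbers were taken to pair the samples only if every same-numbered pair of libraries correlated above 0.1 in its deviations from the group means. Across the 3 plasmid groups 13 of 16 pairs did, and all 6 pairs of Psd1_oe_Pdr3_ko with Psd1_oe did (0.122 to 0.700), so the rule was met between these 2 groups and not over all 3. Same-numbered libraries of these 2 groups also share a library set, except replicate 6, and no same-numbered pair with GalV5-Psd1 does. The fit has no replicate block, and the counts with one are given beside it. Genes were filtered with edgeR's filterByExpr, scaled by the trimmed mean of M values (TMM) and fitted with edgeR 4.0.16 (quasi-likelihood, R 4.3.3) to group, series and log2 CPM of PSD1 (prior count 2), with Benjamini-Hochberg adjustment over all genes at 0.05. The standard error of a slope is its size over the square root of the F statistic. PSD1 itself was left out of the genes tested. Length trends came from a loess of log2 CPM over log2 gene length (span 0.5, genes of at least 5 CPM on average) and entered the fit as offsets. Gene length ran from the start to the end of the gene in the reference. It therefore counts any intron, as in some ribosomal protein genes, and is not the length of the mRNA. The alternatives included DESeq2 1.42.0 and limma 3.58.1. The fit was tested on simulated data, where 99 of 100 slopes of size 1 and 78 of 100 of size 0.5 were recovered among 6225 genes. It made 7 calls among genes simulated with no slope. The fit was not tested on simulated data with a length trend or with variation shared between libraries.

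Genes named in the text are 20 fixed by name, the 10 largest positive and 10 largest negative slopes among genes that passed with a mean of at least 5 CPM and 1 sign in the 3 plasmid groups, and up to 4 members of each of 31 lists with the largest slope that passed (2 by smallest p where none passed), some of them given by range and count. Genes outside this rule are said to be chosen after their values were seen. Figures were drawn with matplotlib 3.10.9.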

Additional observations from a re-analysis of the deposited data

Results flagged for a closer look

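A value was marked when 1 library stood far from the others of its group by Dixon's criterion. That criterion marks about 1 in 20 groups by chance, and 66 groups of values were examined. In Psd1_oe_Pdr3_ko replicate 3, PDR15 was at 187 CPM (next 111), CIS1 at 3.38 CPM (next 1.81) and HSP26 at 2500 CPM (next 1050). In Psd1_oe, GAL10 in replicate 2 was at 9130 CPM (next 7330) and URA3 in replicate 1 at 17400 CPM (next 10300). In GalV5-Psd1 replicate 3, GAL1 was at 7420 CPM (next 6060), GAL10 at 7080 CPM (next 5710) and GAL2 at 3990 CPM (next 3080).

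Slopes on PSD1 differed between the plasmid groups for 9 genes named in the text, by edgeR's interaction test adjusted over all genes. Apart from PDR15 and HSP26, fixed by name, they were named for their slopes over the same libraries. The p-values are therefore a description. The adjusted p was 0.00568 for HXT6, 0.0110 for KGD1, 0.0114 for SSA3, 0.0122 for JEN1, 0.0162 for ARN1, 0.0412 for ACO1, 0.0457 for TPO4, 0.0463 for PDR15 and 0.0492 for HSP26. SSA3, a stress-induced Hsp70, had slopes of 1.94 in Psd1_oe_Pdr3_ko, 0.69 in Psd1_oe and -1.51 in GalV5-Psd1 libraries. PDR15 had 1.18, -0.016 and -0.59, and HSP26 had 1.92, 0.18 and -1.04 in the same order. The whole interaction count was 3 without GalV5-Psd1 replicate 1, so these differences rest on few libraries. That library had the least PSD1 of its group and shares a library set with replicate 3 of the untagged groups, which had the most. These differences cannot be told apart from differences between library sets.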

How the results depend on the processing

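The counts of genes higher and lower with more PSD1 stayed within 1.5 times of 1269 and 1315 under DESeq2, both filters, the library set, group alone or 6 cells as terms, PSD1 left out of library sizes, depth as a covariate, a linear PSD1 scale and limma on log2 CPM or log2 FPKM, although log2 FPKM gave 934 and 1692, a less even balance. They moved to 690 and 510 in series 5 alone, 0 and 2 in series 6 alone (294 genes at an unadjusted p under 0.05), 214 and 98 in Psd1_oe_Pdr3_ko alone, 517 and 374 in Psd1_oe alone, and 684 and 638 in GalV5-Psd1 alone. Lower calls were 746 without Psd1_oe_Pdr3_ko, and both counts were 263 and 164 without Psd1_oe. Removing the length trend gave 448 and 301, and removing length and GC trends 486 and 317. Without 1 library the counts ran from 944 to 1317 and from 839 to 1376, and without the 3 libraries labelled replicate 3 they were 44 and 46. With a replicate block edgeR made 0 calls in either direction (1074 genes at an unadjusted p under 0.05, against 3119 without the block, where DESeq2 gave 1357 and 1349), and 0 with the length trend removed as well (792 unadjusted). Same-numbered libraries correlated by 0.122 to 0.700 in the 6 pairs of Psd1_oe_Pdr3_ko with Psd1_oe and by -0.042 to 0.566 in the 10 pairs with GalV5-Psd1. Of 17 libraries, 11 correlated best with one of the same number. Shared variation between same-numbered libraries is thus present in part of the data, and the fit without the block does not remove it. Pairs of the untagged groups share a library set except replicate 6 (0.122), and no same-numbered pair with GalV5-Psd1 does. Whether the shared variation follows the replicate number or the library set was not tested. PSD1 itself follows the replicate number (89.8% of its variance with group), so little of it is left within the block. The interaction count of 370 was 834 by DESeq2, 95 with the replicate block, 244 with 6 cells, 4 without the libraries labelled replicate 3, and 3 to 963 without 1 library; besides the libraries named in the report it was 230 without Psd1_oe replicate 4, 246, 232 and 245 without Psd1_oe_Pdr3_ko replicates 4, 5 and 6, and 224 and 233 without GalV5-Psd1 replicates 4 and 5. The length-trend correlation, a description, was 0.752 in series 6, 0.935 in Psd1_oe_Pdr3_ko and 0.979 in GalV5-Psd1 alone, and 0.882 to 0.927 without 1 library.

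Slopes that turned sign where a call was involved were, in GalV5-Psd1 alone, PDR5 0.778, GAL7 0.929, GAL10 0.592, SSA4 -0.077, RPN4 -0.0656, PIS1 0.117, SSA3 -1.45, ACO1 -0.673, KGD1 -0.577, JEN1 -2.41, HXT6 -2.04, FET3 -1.09, ARN1 -0.023 and TPO4 -1.37. In series 6 alone they were GAL2 -0.183, GAL4 -0.0998, URA3 0.311, GAL3 -0.556, CKI1 -0.102, CHO2 -0.456, INO2 -0.67, SSA3 -0.583, ARN1 -0.24 and SPL2 1.47, and in Psd1_oe_Pdr3_ko alone GRE2 0.164. PDR1 had -0.0599 with the length trend removed, -0.0444 with GC as well and -0.03 with the length trend removed and the replicate block. With the last of these GAL2 had -0.0307, URA3 0.0118, HTB1 0.101, PHO84 0.773, SPL2 0.929 and VTC1 0.197, and with the block alone PHO84 had 0.867, SPL2 0.738 and VTC1 0.00734. Leaving out libraries, the 3 labelled replicate 3 included, gave slopes between -0.0352 and 0.915 for SSA4, between -0.0961 and 0.919 for SSA3 and between -0.00233 and 0.927 for FET3. The cause of these changes was not tested.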
